A study of Mus musculus with 22 samples.

Results

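Interferon signalling genes of mouse liver were examined through 9 genes, which were the rows of the deposited table named for 4 receptor chains (Ifnar1, Ifnar2, Ifngr1, Ifngr2) and 5 transcription factors (Stat2, Irf1, Irf3, Irf7, Irf9), out of 16469 genes. They were chosen by name and role, all 9 were found, and all 9 passed the filters on low values. Bulk libraries primed at the 3′ end of mRNA came from 22 perfused livers of C57BL6J mice. All livers other than the 7 controls were from mice injected with lipid nanoparticles loaded with a Dicer-substrate RNA (a longer form of small interfering RNA, which the enzyme Dicer shortens), and the column names give Hprt as its target. The particle dose was 0.2 mg/kg for 8 livers and 2 mg/kg for 3 livers. A further 4 livers had 0.2 mg/kg after BLT-1, an inhibitor of lipid transfer by the scavenger receptor SR-BI, given at 1 mg/kg 24 h before the particles. Livers were taken 24 h after the particles. The labels give no treatment, vehicle or time for the controls, and no group received BLT-1 alone, so the BLT-1 group differs from controls by the inhibitor and the particles together.

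Type I interferons bind a receptor made of the chains IFNAR1 and IFNAR2, and interferon gamma binds one made of IFNGR1 and IFNGR2. Janus kinases on these chains phosphorylate STAT proteins. After type I interferon, STAT2 and IRF9 act as subunits of the complex ISGF3, which binds the interferon-stimulated response element (ISRE), whereas interferon gamma acts mainly through the gamma-activated site (GAS). IRF3 is present before stimulation and is activated by phosphorylation after nucleic acid sensing, while the gene for IRF7, the main amplifier of interferon alpha production, is itself switched on by ISGF3. IRF1 is an interferon-gamma-responsive factor of the same family.

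The start regions of the factors that the results turn on are shown because they hold, or lack, the letters of these elements. Sequences are from RefSeq for GRCm38.p6 and run 5′ to 3′ on the gene's strand from 250 bases before to 50 bases after a start site. All 9 genes matched, with 11 windows in all, since Irf1 and Irf9 have 2 each. Capitals mark a match to the ISRE core, GAAA then NN then GAAA, or to the GAS letters TTCNNNGAA, searched on both strands with N as any base.
Irf7 (chr7:141266375-141266674, minus strand): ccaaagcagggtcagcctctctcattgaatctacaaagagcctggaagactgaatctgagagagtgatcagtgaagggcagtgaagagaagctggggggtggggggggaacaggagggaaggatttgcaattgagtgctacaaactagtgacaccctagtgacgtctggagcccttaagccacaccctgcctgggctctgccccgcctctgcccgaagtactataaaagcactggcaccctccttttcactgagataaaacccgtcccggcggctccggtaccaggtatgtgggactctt
Irf9 (chr14:55603735-55604034, plus strand): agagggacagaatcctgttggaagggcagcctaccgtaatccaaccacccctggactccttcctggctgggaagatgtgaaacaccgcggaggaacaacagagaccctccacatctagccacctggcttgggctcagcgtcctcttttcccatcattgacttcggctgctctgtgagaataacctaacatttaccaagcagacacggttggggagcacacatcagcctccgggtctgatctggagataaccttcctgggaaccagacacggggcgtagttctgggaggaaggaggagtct
Irf9 (chr14:55604329-55604628, plus strand): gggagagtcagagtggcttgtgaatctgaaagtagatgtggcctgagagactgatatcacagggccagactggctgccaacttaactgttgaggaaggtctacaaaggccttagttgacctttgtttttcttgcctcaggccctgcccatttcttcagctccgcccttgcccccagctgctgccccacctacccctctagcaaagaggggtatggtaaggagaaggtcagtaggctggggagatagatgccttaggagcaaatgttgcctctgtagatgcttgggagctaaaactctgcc
Stat2 (chr10:128270248-128270547, plus strand): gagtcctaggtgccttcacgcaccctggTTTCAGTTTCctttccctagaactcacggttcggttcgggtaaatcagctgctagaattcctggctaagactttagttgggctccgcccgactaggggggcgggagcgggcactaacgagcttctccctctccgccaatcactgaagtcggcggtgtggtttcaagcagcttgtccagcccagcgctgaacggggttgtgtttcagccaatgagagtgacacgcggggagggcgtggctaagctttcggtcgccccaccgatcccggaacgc
Irf1 (chr11:53769764-53770063, plus strand): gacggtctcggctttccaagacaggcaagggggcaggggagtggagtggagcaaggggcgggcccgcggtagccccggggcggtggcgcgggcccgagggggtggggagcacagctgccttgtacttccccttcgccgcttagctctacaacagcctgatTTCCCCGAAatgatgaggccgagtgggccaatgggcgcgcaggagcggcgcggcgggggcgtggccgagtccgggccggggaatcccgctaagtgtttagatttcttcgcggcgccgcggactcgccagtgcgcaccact
The ISRE core was in 1 of the 11 windows, that of Stat2, as TTTCAGTTTC starting 222 bases before the start site. It was in 3.44% of 32851 promoter windows of the same length. The GAS letters were in 3 of the 11 windows and in 8.3% of all promoter windows. In the Irf1 window shown above they read TTCCCCGAA and began 90 bases before the start site. The other windows with these letters were those of Ifnar1 (TTCACGGAA, 5 bases before) and Ifnar2 (TTCCTGGAA, 214 bases before). Neither set of letters was in the Irf7 window, in the Irf9 windows or in the other Irf1 window, which is not printed. That says only that these letters are not in these stretches of 300 bases. A match is a description of the sequence and not evidence that a factor bound there.

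Libraries held 7152596 to 15101565 reads, of which 2.58 to 7.18% came from spike-in RNA. Levels below are CPM after TMM scaling (counts scaled to library size), from whole reads recovered out of the deposited values. Fold changes are from limma on log2 of the deposited spike-in-scaled values plus 1, relative to the median of all genes tested in that comparison. That median was -0.11 at 0.2 mg/kg, -0.23 at 2 mg/kg and 0.05 with BLT-1 against controls, and the p-values test the unshifted change. An edgeR quasi-likelihood test on the recovered reads is given beside it, because the spike-in scale moved whole libraries against each other, from 0.585 to 1.60 times the TMM scale. Hepatocyte markers (7 of 7 in the table) summed to 16725 to 26804 CPM per liver, so the defining markers of the labelled tissue were present in all of them. The 3 livers at 2 mg/kg held 2.82 to 4.88 CPM of Xist, the RNA of the inactive X chromosome, and 6.47 to 8.90 CPM of the Y-linked gene Ddx3y. The other 19 livers held at most 0.312 CPM of Xist and at least 15.6 CPM of Ddx3y, so wherever the 2 mg/kg livers are compared, dose and this difference cannot be told apart.

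The receptor chains were measured at similar levels in all 4 groups. Of the 4 chains, 0 were called in any of the 5 comparisons by limma or by edgeR at an adjusted p of 0.05. Over all genes tested, limma called 0.206% at 0.2 mg/kg and 0.457% at 2 mg/kg against controls, and edgeR called 5.03% and 7.1%. With BLT-1 against controls the shares were 0.00896% by limma and 2.71% by edgeR, between the doses 0.269% and 5.51%, and between BLT-1 plus 0.2 mg/kg and 0.2 mg/kg alone 0% and 0.0929%. At an unadjusted p under 0.05 limma named 0 chains in the 5 comparisons. By edgeR, Ifnar2 passed that limit at both doses against controls, and Ifngr1 at 2 mg/kg against controls and between BLT-1 plus 0.2 mg/kg and 0.2 mg/kg alone. Of all genes, 16.2% (0.2 mg/kg), 17.9% (2 mg/kg) and 7.22% (BLT-1 against no BLT-1 at 0.2 mg/kg) passed it as well.

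Ifnar2, the chain that binds type I interferon most tightly, had 57.1, 63.1 and 68.8 CPM in controls (lowest, median and highest; n = 7). The same summary at 0.2 mg/kg was 63.0, 69.3 and 72.0 CPM (n = 8). The groups overlapped, with 5 of the 8 livers above the highest control and 8 of 8 above the control mean. The BLT-1 livers held 69.3, 80.7, 62.0 and 66.9 CPM and the 2 mg/kg livers 66.0, 82.0 and 73.0 CPM, each group with 2 livers above every control. The mean of 73.7 ± 8.01 CPM at 2 mg/kg (SD, n = 3) was 1.18 times the control mean of 62.5 ± 4.88 (SD, n = 7). By limma the log2 fold change was 0.21 ± 0.32 (SE; adjusted p = 0.992), and by edgeR 0.23 (adjusted p = 0.0896). At 0.2 mg/kg edgeR gave 0.13 (adjusted p = 0.290). Ifnar2 shares its 3′ end, on the same strand, with the predicted gene Gm21970 in the GENCODE M21 annotation, and reads from this stretch cannot be assigned to one gene with certainty. Gm21970 itself was not called at either dose (edgeR log2 fold change -0.12 and 0.27, adjusted p = 0.952 and 0.866).

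Ifnar1, the signalling partner of IFNAR2, rested on 8 to 23 reads per library. Its level was 1.36, 1.56 and 2.40 CPM in controls and 0.889, 1.60 and 1.86 CPM at 0.2 mg/kg (lowest, median and highest). With BLT-1 it was 1.95, 1.38, 1.28 and 1.69 CPM, and at 2 mg/kg 1.64, 1.59 and 1.20 CPM. No particle-treated liver exceeded the highest control, and all groups overlapped. The log2 fold changes were -0.16 ± 0.25 at 0.2 mg/kg and -0.21 ± 0.33 at 2 mg/kg (limma, SE; adjusted p = 1.00 and 0.920). Smaller changes of Ifnar1 were not detectable at this depth. The 95% interval at 2 mg/kg, from limma on TMM-scaled values, ran from -0.62 to 0.21 on the log2 scale.

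Ifngr1, the ligand-binding chain for interferon gamma, had 3.13, 4.82 and 5.60 CPM in controls and 4.01, 4.83 and 6.73 CPM at 0.2 mg/kg. The 2 mg/kg livers held 6.69, 5.86 and 4.88 CPM, 2 of 3 above every control, and the BLT-1 livers 3.91, 4.49, 4.21 and 4.03 CPM, all below the control mean of 4.59 ± 0.805 (SD, n = 7). The edgeR log2 fold change was 0.33 at 2 mg/kg (adjusted p = 0.247) and 0.15 at 0.2 mg/kg (adjusted p = 0.614). Between BLT-1 plus 0.2 mg/kg and 0.2 mg/kg alone edgeR gave -0.31 with an unadjusted p of 0.0389 and an adjusted p of 0.655. Ifngr2, its partner chain, had means of 3.61 ± 0.267, 3.73 ± 0.584, 3.24 ± 0.839 and 3.85 ± 0.310 CPM in the control, 0.2 mg/kg, BLT-1 and 2 mg/kg groups (SD; n = 7, 8, 4 and 3). Its groups all overlapped, and neither interferon gamma receptor chain was called.

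**Figure D1:**
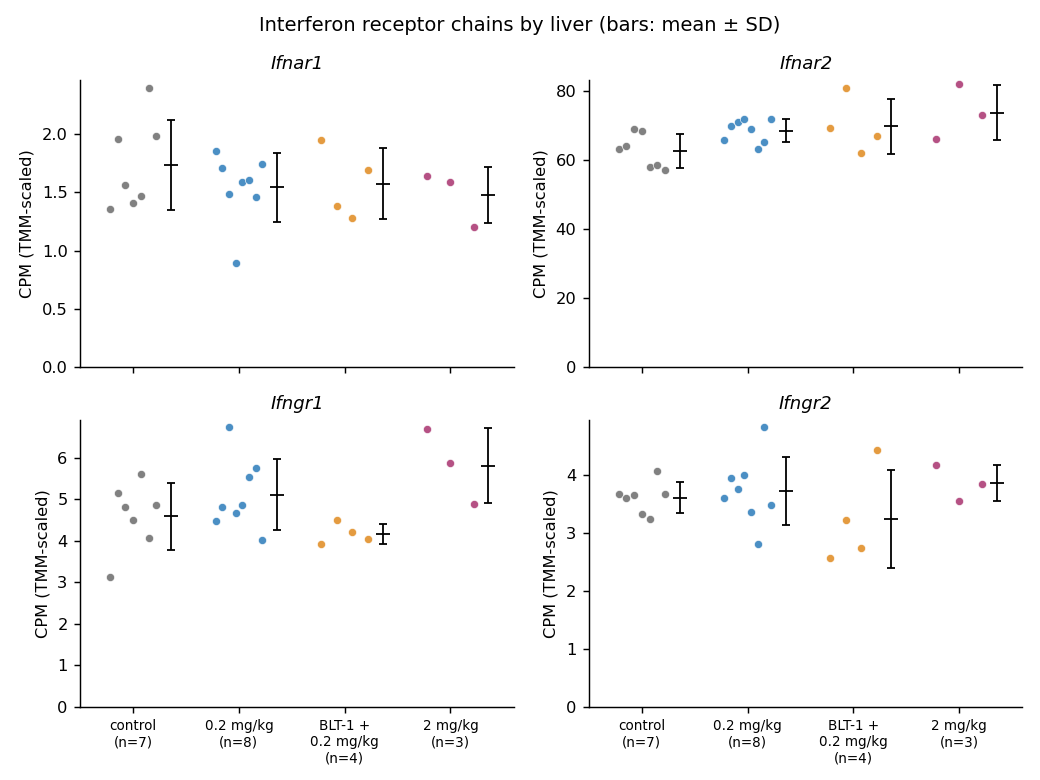
TMM-scaled CPM of Ifnar1, Ifnar2, Ifngr1 and Ifngr2 in each liver (points), by group, with bars for the mean ± SD and vertical axes that start at 0. The groups overlap for every chain, from means of 1.48 to 1.74 CPM for Ifnar1 to 62.5 to 73.7 CPM for Ifnar2.

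The transcription factors did not move as a set. Irf7 rose at both doses by both tests and after BLT-1 by edgeR. Irf9 was called higher at both doses by edgeR but not by limma on the deposited values. Limma on TMM-scaled values and DESeq2 also called Irf9 at both doses. Stat2, Irf1 and Irf3 were not called by limma or edgeR in any comparison. With limma 1 of the 9 genes was called at 0.2 mg/kg and 1 at 2 mg/kg, in both cases Irf7 and upwards, where 0.206% and 0.269% of all genes were called higher. With edgeR 2 of the 9 were called at each dose, Irf7 and Irf9, where 2.77% and 3.6% of all genes were called higher. The median log2 fold change by limma was 0.08 over the 4 receptor chains (range -0.16 to 0.15) and 0.23 over the 5 factors (range -0.04 to 1.81) at 0.2 mg/kg. At 2 mg/kg it was 0.15 for the chains (-0.21 to 0.33) and 0.16 for the factors (-0.11 to 1.97), beside 0 for all genes by construction. Apart from Irf7 and Irf9, the factors thus lay between -0.11 and 0.23, close to the span of the receptor chains. These medians carry no test, and the doses share their controls. In whole liver, more RNA per cell and more cells of an expressing type cannot be told apart.

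Irf7 had 3.13, 8.63 and 10.3 CPM in controls (lowest, median and highest; n = 7). With 0.2 mg/kg it had 23.9, 25.6 and 35.3 CPM (n = 8). The BLT-1 livers held 23.0, 24.0, 24.0 and 20.3 CPM and the 2 mg/kg livers 31.02, 23.4 and 40.1 CPM. Every treated liver lay above every control, and the lowest of them, at 20.3 CPM, was in the BLT-1 group. Higher values without overlap were found for 1.51% of all genes at 0.2 mg/kg, 4.07% at 2 mg/kg and 2.8% with BLT-1.

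The mean of Irf7 rose from 8.10 ± 2.28 CPM in controls to 27.6 ± 4.16 at 0.2 mg/kg and 31.5 ± 8.40 at 2 mg/kg (SD; n = 7, 8 and 3), which is 3.41 and 3.89 times the control mean. By limma the log2 fold change was 1.81 ± 0.26 at 0.2 mg/kg (SE; adjusted p = 0.00222) and 1.97 ± 0.35 at 2 mg/kg (adjusted p = 0.0155). The edgeR values were 1.77 (adjusted p = 1.74e-06) and 1.95 (adjusted p = 8.25e-06). Control liver 1 held only 23 reads of Irf7, and the other controls averaged 8.93 CPM. Leaving out each liver in turn kept the log2 fold change at 0.2 mg/kg between 1.61 and 1.88 by limma. At 2 mg/kg the limma call was lost without liver 3 (log2 fold change 1.95, adjusted p = 0.238) or without liver 36 (1.79, adjusted p = 0.224), while edgeR called it in all 10 such fits, with a highest adjusted p of 0.000254.

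Against controls with animal numbers in the same range, Irf7 at 0.2 mg/kg was higher by 2.18, 1.30 and 1.62 on the log2 scale in the ranges 1 to 7, 14 to 20 and 27 to 39. At 2 mg/kg, with 1 liver in each range, the differences were 2.35, 1.22 and 2.09. The direction was the same in every range at both doses. The BLT-1 livers lie only in the ranges 1 to 7 and 14 to 20, while controls and 0.2 mg/kg livers also lie in the range 27 to 39. Within the shared ranges, Irf7 with BLT-1 differed from controls by 1.97 and 1.14, and from 0.2 mg/kg alone by -0.22 and -0.16. The labels do not say what the number ranges stand for.

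With BLT-1 before the particles Irf7 averaged 22.9 ± 1.77 CPM (SD, n = 4), 2.82 times the control mean. The limma log2 fold change was 1.56 ± 0.32 (SE) and missed the threshold with an adjusted p of 0.0938, in a comparison where limma called 0.00896% of all genes. The edgeR test called it (log2 fold change 1.48, adjusted p = 0.000227), where 1.65% of all genes were called higher. Against 0.2 mg/kg alone the difference was -0.26 ± 0.31 by limma (SE; adjusted p = 0.994) and -0.28 by edgeR (adjusted p = 0.885), with overlapping groups. The 95% interval of that difference on TMM-scaled values, by limma, was -0.72 to 0.20. Between 2 and 0.2 mg/kg the interval was -0.34 to 0.68 around 0.17, so a 10-fold higher dose went with a difference that was not detectable with 3 livers.

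The 3′ end of Irf7 overlaps that of Phrf1 on the opposite strand, and the sources used here do not say whether reads were counted by strand. Phrf1 had means of 4.57, 4.84, 5.14 and 4.33 CPM in the control, 0.2 mg/kg, BLT-1 and 2 mg/kg groups. It was not called at either dose (edgeR log2 fold change 0.09 and -0.08, adjusted p = 0.863 and 0.905).

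Irf9, the DNA-binding subunit of ISGF3, had 4.27, 6.38 and 8.66 CPM in controls and 7.67, 8.66 and 11.3 CPM at 0.2 mg/kg (lowest, median and highest). The 2 mg/kg livers held 10.9, 8.68 and 11.8 CPM and the BLT-1 livers 6.89, 7.13, 6.49 and 5.64 CPM. At 0.2 mg/kg all 8 livers were above the control mean but 4 lay within the control range. At 2 mg/kg all 3 lay above the highest control, one of them barely, while the BLT-1 livers lay within the control range and below every liver at 0.2 mg/kg alone. Of all genes, 4.07% were higher without overlap at 2 mg/kg against controls. Lower values without overlap were found for 0.78% of all genes between BLT-1 plus 0.2 mg/kg and 0.2 mg/kg alone.

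The mean of Irf9 was 6.49 ± 1.35 CPM in controls, 8.87 ± 1.09 at 0.2 mg/kg, 6.54 ± 0.654 in the BLT-1 livers and 10.4 ± 1.60 at 2 mg/kg (SD; n = 7, 8, 4 and 3). The ratios to controls were 1.37, 1.01 and 1.61. Against controls of the same number range, in the order given for Irf7, Irf9 at 0.2 mg/kg was higher by 0.11, 0.35 and 0.65 (log2 scale). At 2 mg/kg, with 1 liver in each range, the differences were 0.40, 0.36 and 1.00. The rise was thus largest in the last range at both doses. The limma test on the deposited scale did not call it (log2 fold change 0.46 ± 0.26 at 0.2 mg/kg and 0.68 ± 0.35 at 2 mg/kg, SE; adjusted p = 1.00 and 0.920). The edgeR test called it at 0.2 mg/kg (0.44, adjusted p = 0.0277) and at 2 mg/kg (0.67, adjusted p = 0.00639). The edgeR call at 0.2 mg/kg was lost without control 28 (log2 fold change 0.42, adjusted p = 0.0620), control 29 (0.44, adjusted p = 0.0547) or the highest 0.2 mg/kg liver, number 30 (0.39, adjusted p = 0.0594). The call at 2 mg/kg was lost without liver 36 (0.58, adjusted p = 0.0716). Without controls 28 and 29 together, the edgeR adjusted p was 0.0992 at 0.2 mg/kg and 0.0153 at 2 mg/kg.

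Between BLT-1 plus 0.2 mg/kg and 0.2 mg/kg alone, Irf9 differed by -0.43 ± 0.31 on the log2 scale with limma (SE; adjusted p = 0.994) and by -0.45 with edgeR (unadjusted p = 0.00402, adjusted p = 0.328). This did not pass the adjustment over all genes, of which edgeR called 0.0929% and limma 0% in this comparison (777 and 206 genes at an unadjusted p under 0.05). The 95% interval from limma on TMM-scaled values ran from -0.71 to -0.15, while that from limma on the deposited scale included 0. Within the number ranges that hold both groups, the difference was -0.27 and -0.44. Against controls the BLT-1 group differed by 0.03 ± 0.32 with limma (SE; adjusted p = 1.00), with a 95% interval on TMM-scaled values of -0.26 to 0.32. Within the number ranges that hold BLT-1 livers, its difference from controls was -0.16 and -0.09. Both groups were set against the same controls.

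Irf9 overlaps Rnf31 on the same strand in the GENCODE M21 annotation. The overlap does not reach the 3′ end of Irf9. The 3′ end of Rnf31, where libraries of this kind read that gene, lies inside Irf9. Rnf31 had means of 1.40 ± 0.704 CPM in controls, 2.05 ± 1.20 at 0.2 mg/kg, 0.749 ± 0.470 in the BLT-1 livers and 2.96 ± 1.30 at 2 mg/kg (SD; n = 7, 8, 4 and 3), lowest with BLT-1 and highest at 2 mg/kg. It was not called against controls (edgeR adjusted p = 0.591, 0.238 and 0.514 at 0.2 mg/kg, 2 mg/kg and with BLT-1). Between BLT-1 plus 0.2 mg/kg and 0.2 mg/kg alone its log2 fold change was -1.40 by edgeR (unadjusted p = 0.0111, adjusted p = 0.469) and -1.29 ± 0.50 by limma (SE; adjusted p = 0.994), of the same sign as that of Irf9. Whether its reads enter the Irf9 values was not tested.

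Stat2, the ISGF3 subunit whose start region carries the ISRE letters shown above, spread more than any other of the 9 genes within controls, with a coefficient of variation of 34.7%. Its controls held 3.23, 5.77 and 9.28 CPM (lowest, median and highest) and its 0.2 mg/kg livers 3.61, 5.69 and 7.55 CPM. The BLT-1 livers held 5.04, 4.37, 6.22 and 3.87 CPM and the 2 mg/kg livers 7.78, 3.26 and 9.24 CPM. No treated liver was above the highest control, and the 2 mg/kg livers covered almost the whole control range. The log2 fold change was -0.04 ± 0.35 at 0.2 mg/kg and 0.10 ± 0.46 at 2 mg/kg (limma, SE; adjusted p = 1.00 and 0.952). The limma 95% intervals on TMM-scaled values were -0.50 to 0.45 and -0.52 to 0.74, which do not reach the 1.81 and 1.97 of Irf7.

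Irf1 had 4.86, 6.39 and 7.22 CPM in controls and 6.12, 7.09 and 8.85 CPM at 0.2 mg/kg. The BLT-1 livers held 7.71, 6.33, 6.40 and 6.85 CPM and the 2 mg/kg livers 8.11, 5.498 and 7.62 CPM. With 0.2 mg/kg 4 of 8 livers were above every control and 7 of 8 above the control mean, with overlapping groups. The log2 fold change there was 0.23 ± 0.25 by limma (SE; adjusted p = 1.00) and 0.24 by edgeR (unadjusted p = 0.0328, adjusted p = 0.243).

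Irf3 had 8.02, 10.7 and 11.3 CPM in controls and 8.33, 10.2 and 12.4 CPM at 0.2 mg/kg. The 2 mg/kg livers held 8.55, 9.98 and 9.50 CPM. The BLT-1 livers held 7.61, 7.71, 8.41 and 7.98 CPM, all below both of the other means of 10.0 CPM but overlapping both groups. The edgeR log2 fold change of the BLT-1 group was -0.35 against 0.2 mg/kg (unadjusted p = 0.00407, adjusted p = 0.330) and -0.35 against controls (unadjusted p = 0.00454, adjusted p = 0.108), and limma gave -0.32 ± 0.27 and -0.33 ± 0.28 (SE; adjusted p = 0.994 and 1.00). Irf3 was thus not called, and neither was it higher in any particle group.

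**Figure D2:**
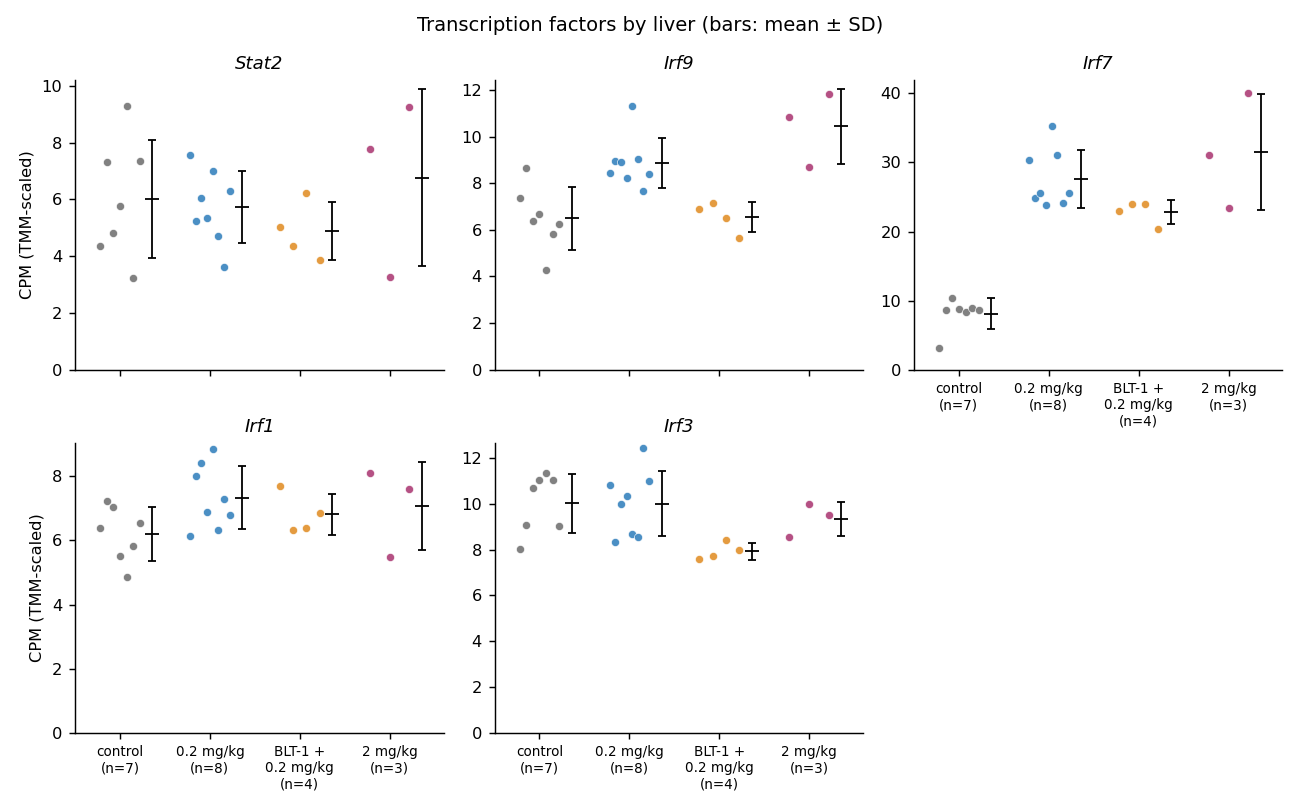
TMM-scaled CPM of Stat2, Irf9, Irf7, Irf1 and Irf3 in each liver (points), by group, with bars for the mean ± SD and vertical axes that start at 0. For Irf7 all 15 treated livers lie above the 7 controls, for Irf9 the BLT-1 livers lie within the control range, and for Stat2, Irf1 and Irf3 the groups overlap.

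**Figure D3:**
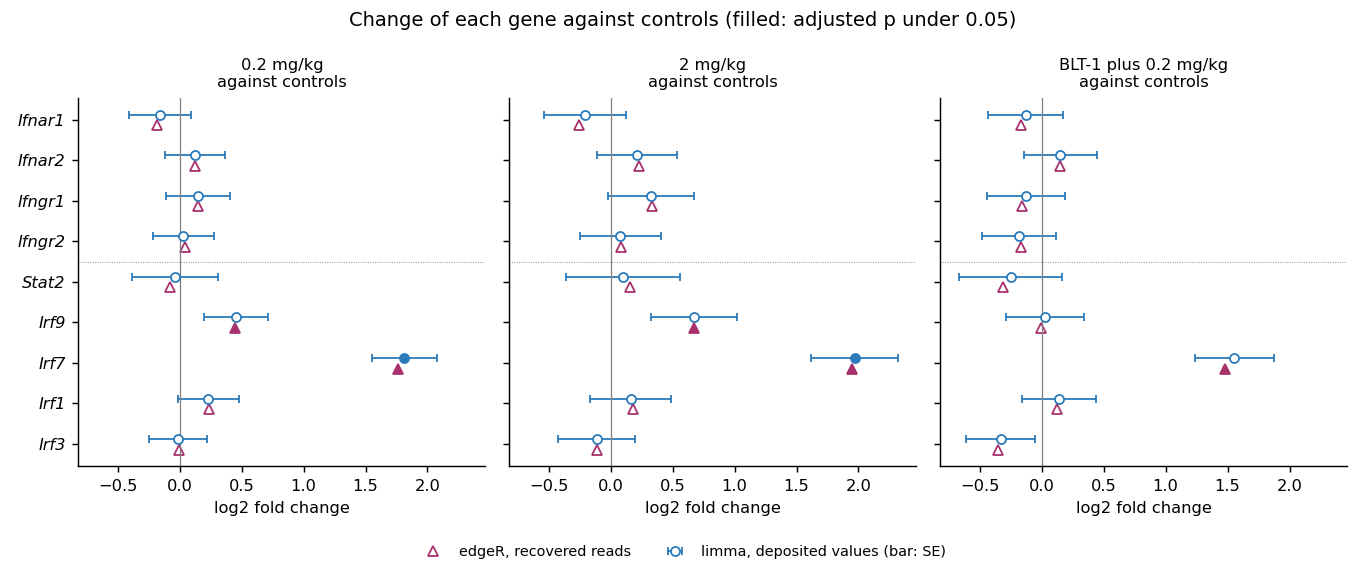
Log2 fold change of each of the 9 genes against controls at 0.2 mg/kg, at 2 mg/kg and with BLT-1 plus 0.2 mg/kg, by limma on the deposited values relative to the median of all genes (circles, bars ± SE) and by edgeR on recovered reads (triangles), filled where the adjusted p is under 0.05. Irf7 lies at 1.48 to 1.97 in all 3 comparisons and the receptor chains lie between -0.26 and 0.33.

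Within the 8 livers at 0.2 mg/kg, Irf7 and Irf9 gave a correlation that did not pass the adjustment (Pearson r = 0.78, exact permutation p = 0.0174, adjusted over 8 relations 0.139; Spearman rho = 0.81, exact permutation p = 0.0218, adjusted 0.174). Without the 2 livers farthest from the median of Irf7 (30 and 31) r was 0.22, so the value rests on those livers. Irf7 with Stat2 gave r = 0.52, Irf9 with Stat2 r = 0.50 and Irf1 with Irf7 r = 0.06 in the same livers (exact permutation, adjusted p = 0.541, 0.541 and 0.966). Without the 2 livers farthest from the median of the gene named first, these r were 0.78, -0.50 and -0.77. In controls the r of the 4 pairs lay between -0.26 and 0.24, and 0 of the 8 relations passed the adjustment. With 2 controls left out by the same rule they lay between -0.97 and 0.23, so these r depend on few livers. The smallest unadjusted p was that of Irf7 with Irf9.

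**Figure D4:**
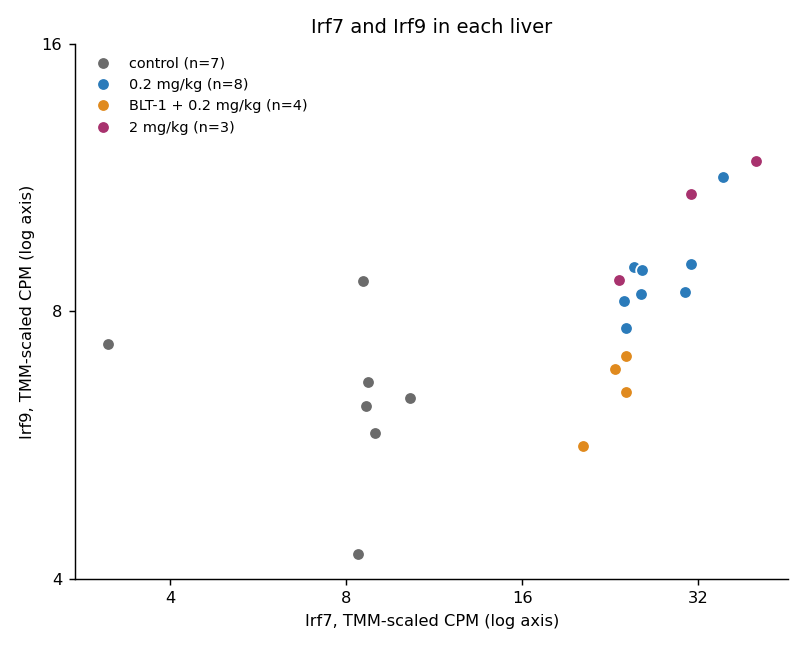
Irf9 against Irf7 in each of the 22 livers, in TMM-scaled CPM on log axes, coloured by group. Controls lie at 3.13 to 10.3 CPM of Irf7 and all treated livers at 20.3 CPM or more, with the BLT-1 livers below the livers at 0.2 mg/kg in Irf9.

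Over the 22 livers, the tested genes whose profiles were most like that of Irf7 were Zbp1, which senses left-handed nucleic acid helices, Ly6a, a surface antigen of stem and immune cells, and Psmb8, a subunit of the immunoproteasome. Likeness was the root mean square distance between log2(CPM + 1) profiles centred on the control mean, among 9872 genes, and was 0.26, 0.29 and 0.32. Irf7 itself lay 1.41 from a flat profile. Mean levels in the control, 0.2 mg/kg, BLT-1 and 2 mg/kg groups were 11.1, 42.9, 34.7 and 41.1 CPM for Zbp1 and 17.1, 51.7, 40.9 and 58.0 CPM for Ly6a. Psmb8 went from 13.8 CPM in controls to 41.1 at 0.2 mg/kg, 35.3 in the BLT-1 livers and 34.1 at 2 mg/kg. For Irf9 the nearest were Slco3a1, an organic anion transporter, Trafd1, a negative regulator of innate immune signalling, and Dtx3l, a ubiquitin ligase, at distances of 0.18, 0.19 and 0.19 beside 0.38 from a flat profile. In the same order of groups the means were 1.17, 1.82, 1.52 and 2.28 CPM for Slco3a1, 10.3, 13.8, 10.47 and 16.04 CPM for Trafd1 and 4.84, 6.77, 5.997 and 7.17 CPM for Dtx3l. The BLT-1 mean was near that of controls for Trafd1 and lay between the control and 0.2 mg/kg means for Slco3a1 and Dtx3l, and all of them were picked for their likeness to Irf9. For Stat2 (Sars, Ranbp1 and Pnisr, 0.30 each beside 0.37 from flat) the nearest genes were not much nearer than a flat profile. For Irf1 the nearest were Psmd14, Arpp19 and Psma4, at 0.14 to 0.15 beside 0.22 from flat.

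Around these 9 genes, the other pathway genes given here gave 1 called gene, Usp18. None of 21 listed interferon genes, type I, II or III, was among the rows used here. Of the other STATs given here 5 were in the table, 4 were tested and 0 were called against controls by limma or by edgeR.

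Among 14 negative regulators, of which limma tested 13 and edgeR 12, Usp18 was the one called. Usp18 removes ISG15 from proteins and blocks signalling at IFNAR2. It had means of 2.76 ± 0.808 CPM in controls, 5.997 ± 1.30 at 0.2 mg/kg, 4.47 ± 1.12 in the BLT-1 livers and 12.2 ± 4.63 at 2 mg/kg (SD; n = 7, 8, 4 and 3). All livers at both doses of particles alone lay above the highest control, at 3.91 CPM. Of all genes, 1.51% were higher without overlap at 0.2 mg/kg and 4.07% at 2 mg/kg. The limma log2 fold change was 2.05 ± 0.41 at 2 mg/kg (SE; adjusted p = 0.0376), and edgeR called it at 0.2 mg/kg (1.12, adjusted p = 0.00165), at 2 mg/kg (2.14, adjusted p = 1.38e-05) and between the doses (1.01, adjusted p = 0.0126). None of the 9 genes was called between the doses, where edgeR called 5.51% and limma 0.269% of all genes and where 1796 and 391 genes had an unadjusted p under 0.05.

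The remaining lists gave 0 calls against controls by limma and by edgeR. They were the Janus kinases (3 tested of 4), the other IRFs given here (3 of 4), the adaptors and kinases upstream of the IRFs (9 tested by limma and 8 by edgeR, of 11) and the receptor chain Il10rb, shared by interferon lambda and interleukin 10. Jak1, which serves both interferon receptors, had means of 20.1, 21.1, 21.0 and 19.8 CPM in the control, 0.2 mg/kg, BLT-1 and 2 mg/kg groups. Irf2, which competes with IRF1 for its sites, had 131.8, 143.4, 130.4 and 122.3 CPM. Median log2 fold changes by limma at 0.2 mg/kg were 0.00 for the Janus kinases, 0.12 for these other IRFs and 0.01 for the adaptors and kinases. At unadjusted p under 0.05 edgeR named, of the pathway genes given here, Stat3, Tbk1 and Socs3 at 0.2 mg/kg and Il10rb and Ikbke at 2 mg/kg, besides Usp18. These were 4 and 3 of 31 genes tested (12.9% and 9.68%), beside 16.2% and 17.9% of all genes. At 0.2 mg/kg the means of Stat3 and Socs3 were lower than in controls (23.4 against 30.4 CPM and 3.02 against 4.98 CPM). That of Tbk1 was higher (4.21 against 3.45 CPM). At 2 mg/kg those of Il10rb and Ikbke were higher (3.17 against 2.14 CPM and 1.64 against 0.916 CPM).

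**Figure D5:**
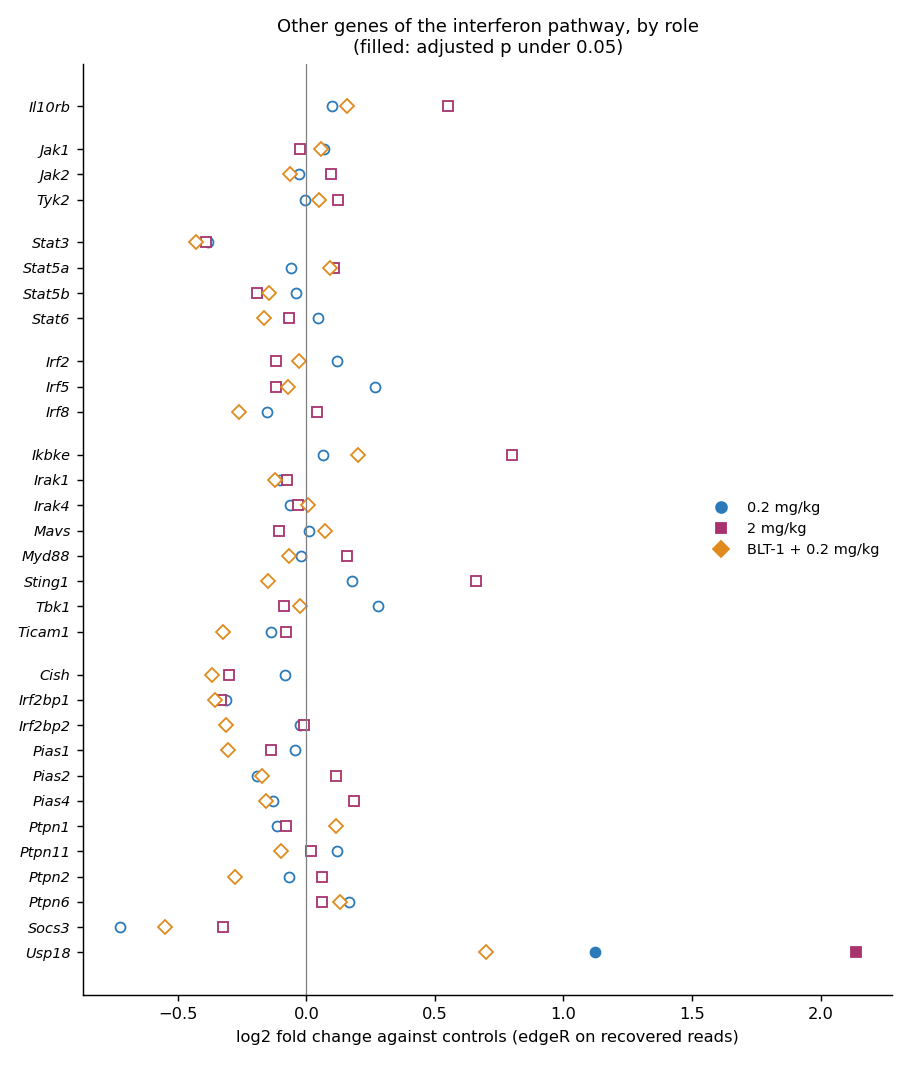
Log2 fold change against controls of the other pathway genes given here and tested by edgeR, grouped by role, at 0.2 mg/kg (circles), 2 mg/kg (squares) and with BLT-1 plus 0.2 mg/kg (diamonds), filled where the adjusted p is under 0.05. Usp18 is filled at both doses of particles alone, and no other gene plotted is filled.

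Markers of hepatocytes and of immune cells moved in some of the same comparisons. The hepatocyte markers summed to 21628 to 26804 CPM in controls, 20362 to 22728 at 0.2 mg/kg, 20113 to 21759 in the BLT-1 livers and 16725 to 20760 at 2 mg/kg, where every liver was below the lowest control. Of the 7, edgeR called 3 lower at 0.2 mg/kg (Alb, Tat and Pck1), 3 lower at 2 mg/kg (Alb, Apoa1 and Ttr) and 0 with BLT-1 against controls, and limma called 0. Of all 10766 genes, edgeR called 243, 376 and 114 lower and 298, 388 and 178 higher in these comparisons, in that order. The 10 Kupffer cell markers, all in the table, summed to 75.0 to 102 CPM in controls, 58.8 to 89.0 at 0.2 mg/kg, 63.4 to 93.1 in the BLT-1 livers and 54.7 to 71.0 at 2 mg/kg, and edgeR called 2, 2 and 4 of the 10 lower in the 0.2 mg/kg, BLT-1 and 2 mg/kg groups. The monocyte list (7 of 8 in the table, Vcan not used here) summed to 124 to 161 CPM in controls, 140 to 165 at 0.2 mg/kg, 147 to 160 in the BLT-1 livers and 135 to 181 at 2 mg/kg, with 2, 0 and 1 genes called higher in the same order. Over the 6 monocyte genes tested, the median edgeR log2 fold change against controls was 0.39, 0.48 and 0.44 in that order. Neutrophil markers (5 of 7) summed to 7.34 to 59.99 CPM in controls, 16.1 to 34.5 at 0.2 mg/kg, 15.985 to 60.2 in the BLT-1 livers and 40.2 to 112 at 2 mg/kg. Of 3 neutrophil markers tested, edgeR called 1 higher at 2 mg/kg against controls (S100a9), 2 higher between the doses (S100a8 and S100a9) and 0 in the other comparisons, with median log2 fold changes of 1.38 at 2 mg/kg and 1.80 between the doses. Between the doses edgeR called 309 of all 10766 genes higher. Markers of plasmacytoid dendritic cells, which are rich in IRF7, were 4 of 8 in the table. They summed to 7.82 to 11.3 CPM in controls, 8.61 to 13.8 at 0.2 mg/kg, 10.2 to 12.5 in the BLT-1 livers and 9.26 to 14.2 at 2 mg/kg, with Cox6a2 at 0 in all controls and 0 of 1 tested gene called. Of 8 sinusoidal endothelial markers, edgeR called 1 higher at each dose against controls. It called 1 higher and 1 lower between the doses, and 1 lower with BLT-1 against 0.2 mg/kg alone. Of 6 stellate cell markers it called 1 higher between the doses and 0 against controls. Of 3 T and NK cell markers tested it called 0, with a median log2 fold change of 1.27 at 2 mg/kg. The part of these cell types in the Irf7 and Irf9 values was not tested.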

How the data were processed

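Reads were made from 22 perfused livers with a 3′ mRNA kit and ERCC spike-in RNA, per the labels' protocols. Per the submitters' processing notes, the authors used bcl2fastq, Trim Galore 0.6.7, STAR 2.7.9a, Salmon 1.5.2, R 4.1.1 and DESeq2 1.32.0 with GRCm39, in roles and with a strand setting that are not given in the sources used here. The deposited table holds 1 signal value per gene and library (16553 rows, 84 of them spike-ins), which the authors had divided by a factor per library that follows the spike-ins. Whole reads were recovered from these values for 100% of them (tolerance 0.001). No molecular barcodes were used, so intervals cover the spread between livers and not copied reads.

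The main test was limma 3.58.1 with a trend on log2(deposited value + 1) for genes at 10 or more in 3 or more libraries (11159 genes), with all 22 libraries in 1 fit and Benjamini-Hochberg adjustment over all genes. A gene was called at an adjusted p under 0.05. It was set beside edgeR 4.0.16 (quasi-likelihood, TMM, filterByExpr, 10766 genes) on the recovered reads, and DESeq2 1.42.0, in R 4.3.3. Over all genes edgeR called 541, 764 and 292 at 0.2 mg/kg, 2 mg/kg and with BLT-1 against controls, and limma 23, 51 and 1. Limma and edgeR were also run on simulated reads with planted changes, where a pass limit was set only for edgeR at the largest planted change. Their recovery of smaller changes is not reported here. Levels are TMM-scaled CPM. Correlations used exact permutation of pairings.

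The labels give every liver its own animal number, and p-values measure the spread between livers. The 9 genes, the pathway and marker lists and the tests were chosen with earlier results of these data known. Named beside the 9 genes were called genes of the pathway lists, up to 3 uncalled ones of highest level per list and the 3 most alike genes of Irf7, Irf9, Stat2 and Irf1. Uncalled pathway genes named for an unadjusted p, and the neighbours in the annotation, were chosen after their values were seen. Other settings were pseudocounts of 0.5 and 10, no filter, only the groups compared, number ranges as a term, TMM-scaled values, each liver left out in turn and controls 28 and 29 left out. Leaving out livers in edgeR was added after seeing the data. Promoter sequences and motif shares are from RefSeq (GRCm38.p6) and overlaps of genes from GENCODE M21, neither of which is the authors' build. Genes on the deposited scale were not compared with each other in level. Some genes of the pathway lists are not reported here, and counts of those lists leave them out.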

Additional observations from a re-analysis of the deposited data

Results flagged for a closer look

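In 3 of 27 sets of 1 gene in 1 group of 4 to 8 livers, 1 liver stood apart from its group, and chance alone gives about 1 in 20. Control liver 1 held 3.128 CPM of Irf7 (23 reads), below the nearest control at 8.393 CPM, and the other controls averaged 8.926 CPM. Its deviation makes the mean rise of Irf7 larger, and without it the rise was called at both doses. At 0.2 mg/kg liver 30 held 11.32 CPM of Irf9 (128 reads), above the nearest liver at 9.04 CPM, and the other livers averaged 8.515 CPM. This liver also held the highest Irf7 of its group. At 0.2 mg/kg liver 18 held 0.8892 CPM of Ifnar1, from 8 reads, below the nearest liver at 1.457 CPM.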

How the results depend on the processing

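The number of the 9 genes called depended on the scale. It was 1, 1 and 0 at 0.2 mg/kg, 2 mg/kg and with BLT-1 against controls by limma on the deposited values. It was 2, 2 and 1 by limma on TMM-scaled values, by edgeR with TMM, by edgeR without a filter, by edgeR with the number ranges as a term and by DESeq2. These settings called more of all genes as well. Limma called 23, 51 and 1 of 11159 genes on the deposited values and 605, 837 and 308 of 10865 on TMM-scaled values. With TMM edgeR called 541, 764 and 292 of 10766, and without a filter 449, 648 and 210 of 16301. With the number ranges as a term it called 555, 820 and 262 of 10766, and DESeq2 called 699, 893 and 471 of 16130. Without controls 28 and 29 edgeR called 1, 2 and 1 of the 9 genes, and 504, 1073 and 366 of all 10571 genes tested. Among the 9 genes the added calls were Irf9 at both doses and Irf7 with BLT-1. Leaving out each liver in turn, limma called 1 to 1, 0 to 1 and 0 to 0 of the 9, and edgeR 1 to 2, 1 to 2 and 1 to 1. Pseudocounts of 0.5 and 10, no filter, only the groups compared and the number ranges as a term left the limma counts of the 9 genes as they were. None of the 9 genes was called between the doses or with BLT-1 against 0.2 mg/kg alone under any setting. No fold change of a called gene among the 9 changed direction.

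On the deposited scale the correlations within the 8 livers at 0.2 mg/kg passed the adjustment over 8 relations, with r of 0.951 for Irf7 and Irf9, 0.865 for Irf7 and Stat2, 0.861 for Irf9 and Stat2 and 0.794 for Irf1 and Irf7 (exact permutation, adjusted p = 0.00139, 0.0165, 0.0165 and 0.0346). Values on that scale carry 1 factor per library that all genes share, and the factor moved from 0.679 to 1.58 times the TMM scale in these livers.

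No paired analysis was possible because every liver has its own animal number and the groups share none. With 3 livers at 2 mg/kg and 4 with BLT-1 the intervals are wide, and Ifnar1 rests on 8 to 23 reads per library.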
